A study of Mus musculus with 4 samples.

Results

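The 10 genes described here encode replication-independent histone variants of the mouse: H3f3a, H3f3b, H2afz, H2afv, H2afx, H2afj, H2afy, H2afy2, H1f0 and H1fx. They were taken by name from a deposited table of 55335 gene rows, in which each of the 10 has 1 row. RNA was compared between IQ3pos and IQ3neg epithelial cells from the corpus of the stomach, taken at 6 to 8 weeks of age from mice of strain C57BL/6. All mice carried Iqgap3-2A-tdTomato, a reporter that makes the red protein tdTomato from the locus of Iqgap3, a scaffold protein. IQ3pos cells were sorted as Iqgap3-high and IQ3neg cells as Iqgap3-low or negative, in each case among living cells that bear the epithelial surface protein EpCAM. Each fraction had 2 libraries made by SMART-Seq2, a full-length method that amplifies polyadenylated RNA by PCR: IQ3pos_1909A and IQ3neg_1909B from pools of 3 mice, and IQ3pos_1910A and IQ3neg_1910B from pools of 4 mice. The libraries are pools of mice, the labels do not say whether both fractions came from the same animals, and a p-value measures only the spread between these pools, part of which may be technical. The series title places the comparison in a study of stem cell proliferation.

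DNA is wound on nucleosomes built from histones H2A, H2B, H3 and H4, and a linker histone of the H1 group sits where DNA enters and leaves. Most histone protein is made in S phase from clustered genes whose mRNA ends in a stem-loop and has no poly(A) tail. The variants studied here are made from genes outside those clusters, mainly as polyadenylated mRNA and also outside S phase, and dedicated chaperones place them at particular sites. H3f3a and H3f3b encode the same H3 variant protein, which is laid down at active genes and regulatory elements, whereas H2afz and H2afv encode the closely related pair of H2A.Z proteins found at promoters.

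Reads assigned to genes numbered 90714929 in the shallowest library and 418401262 in the deepest, and counting error mattered here only for H1fx, H2afy2 and, in part, H2afx. Levels are given as deposited, in counts per 1000000 reads in genes (CPM). The 20 most abundant genes held 25.3% and 18.5% of reads in IQ3pos_1909A and IQ3pos_1910A, against 63.4% and 57.9% in IQ3neg_1909B and IQ3neg_1910B. CPM are shares of a library, and the median of the 13019 genes tested lay 0.68 above 0 on the log2 scale for IQ3pos minus IQ3neg (1.60-fold). Differences of the variant genes are therefore also given after scaling by trimmed mean of M values (TMM), which put that median close to 0. Iqgap3 itself, the gene of the sort, stood at 0.220 and 9.32 CPM in IQ3pos_1909A and IQ3pos_1910A, against 0.0435 and 0.452 CPM in IQ3neg_1909B and IQ3neg_1910B. IQ3pos_1909A thus held less Iqgap3 RNA than IQ3neg_1910B, and the fitted differences of the variant genes are given below with and without it. Shares, sums, cell markers and single genes of the other lists are given with it only. The epithelial markers Epcam, Cdh1, Krt8 and Krt18 were present in all 4 libraries, with Epcam at 473 and 517 CPM in IQ3pos and at 205 and 266 CPM in IQ3neg.

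The fractions also differed in cell markers, and the part of these in the results below was not tested. For scale, 40.9% of all tested genes were higher in both IQ3pos libraries in CPM and 14.2% were lower. After TMM scaling these shares were 23.3% and 23.7%. All 8 cell division markers were higher in both IQ3pos libraries, with summed levels of 1356 and 3015 CPM in IQ3pos_1909A and IQ3pos_1910A, against 169 and 289 CPM in IQ3neg_1909B and IQ3neg_1910B. The 4 pit cell markers, also all higher, summed to 9538 and 9754 CPM in IQ3pos, against 1015 and 1364 CPM in IQ3neg. Of 4 parietal markers 3 were higher in both IQ3pos libraries, with sums of 7444 and 7119 CPM, against 749 and 1341 CPM in IQ3neg. The 2 neck markers summed to 4616 and 5900 CPM in IQ3pos, against 678 and 1152 CPM in IQ3neg. Most of the IQ3pos sum was Tff2 (4236 and 5492 CPM), which was higher in both IQ3pos libraries. Muc6 overlapped, at 381 and 408 CPM in IQ3pos and at 263 and 556 CPM in IQ3neg. After TMM scaling Muc6 was lower in both IQ3pos libraries. Sums of the 4 tuft markers overlapped, at 479 and 113 CPM in IQ3pos and at 326 and 929 CPM in IQ3neg, and 1 of them was lower in both IQ3pos libraries in CPM and 3 after TMM scaling. All 5 chief cell markers were lower in both IQ3pos libraries, with sums of 50900 and 19520 CPM, against 414688 and 403565 CPM in IQ3neg. All 5 enteroendocrine markers were lower too, at 360.2 and 175 CPM in sum, against 16173 and 10178 CPM in IQ3neg. Sums of the immune markers overlapped, at 267 and 49.1 CPM in IQ3pos and at 370.2 and 72.7 CPM in IQ3neg. Of the 4 tested immune markers, 1 (Itgam) was lower in both IQ3pos libraries in CPM and 0 were higher. After TMM scaling 2 (Itgam and Ptprc) were lower and 0 higher. The T cell gene Cd3e was at most at 0.0551 CPM in any library. Markers of stroma and vessel summed to 1.29 and 1.34 CPM in IQ3pos, against 28.4 and 2.19 CPM in IQ3neg. In bulk RNA, fewer cells of a type and less RNA per cell cannot be told apart.

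As a group, the variant transcripts took a larger share of the IQ3pos libraries. Their summed level was 9441 and 12631 CPM in IQ3pos_1909A and IQ3pos_1910A, against 3499 and 3993 CPM in IQ3neg_1909B and IQ3neg_1910B, a ratio of the means of 2.95, or 1.67 after TMM scaling. Most of that sum was H3f3b, which made up 75.5% and 74.6% of it in IQ3pos and 80.1% and 80.7% in IQ3neg. The mean of the 4 libraries reached the filter of 1 CPM for 8 of the 10 genes, and H2afy2 and H1fx stayed under it. Of these 8, all but H2afx stood higher in each IQ3pos library than in either IQ3neg library, in CPM and after TMM scaling alike, where 40.9% of all tested genes were higher in that way in CPM and 23.3% after TMM scaling. None of the 10 was lower in both IQ3pos libraries (14.2% of tested genes in CPM, 23.7% after TMM scaling). The median log2 difference of the 8 was 1.38, or 0.70 above the median of all tested genes, and it was 0.57 after TMM scaling.

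**Figure D1:**
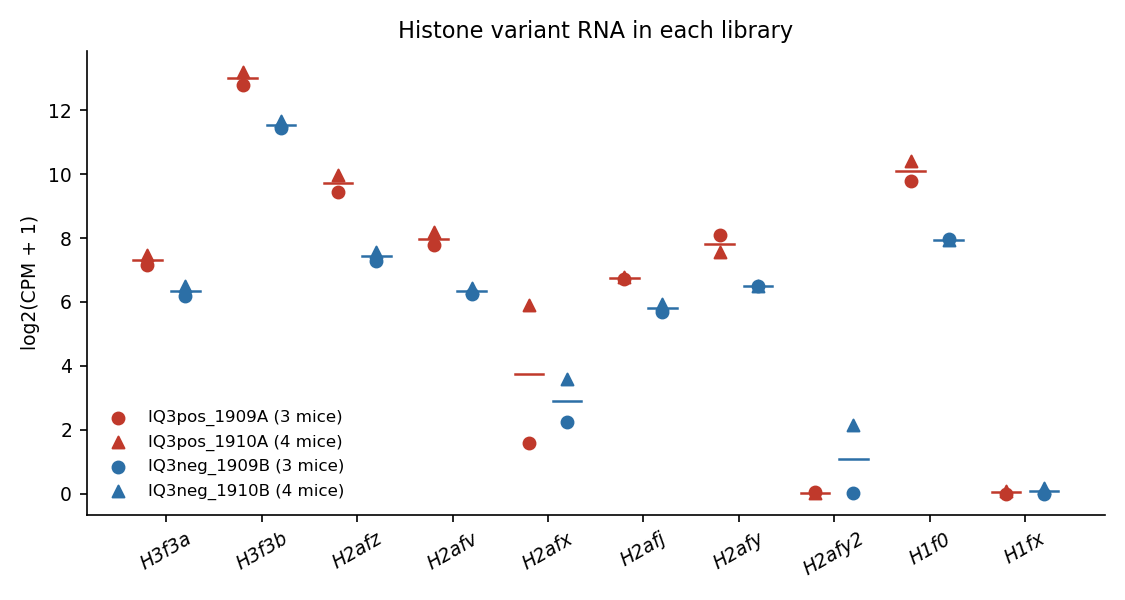
The vertical axis gives log2(CPM + 1) for each of the 10 histone variant genes, with IQ3pos libraries in red on the left of each gene and IQ3neg libraries in blue on the right; circles are pools of 3 mice, triangles pools of 4 mice, and a bar is the mean of the 2 libraries. Red lies above blue for 7 genes, while H2afx overlaps and H2afy2 and H1fx lie near 0 in most libraries.

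With limma, 0 of the 8 tested variant genes had an adjusted p under 0.05, and the same was true of the 13019 genes as a whole (0 higher and 0 lower, background 0%, smallest adjusted p = 0.0542). With p under 0.05 before adjustment in limma, 7 of the 8 tested variant genes were higher and 0 were lower, where 18.2% of all tested genes were higher and 4.98% lower. After TMM scaling the count was 4 of 8, beside 6.91% of tested genes higher and 8.79% lower, and 0 of 8 passed limma's adjusted threshold there, beside 0.0461% of genes higher and 0.246% lower. The edgeR quasi-likelihood test with TMM, run on whole reads recovered from the CPM, also called 0 of the variant genes (0.0535% of genes higher, 0.214% lower), as did the DESeq2 Wald test (2.54% higher, 10.1% lower). Other settings of limma gave calls: 4 of the 8 were called higher with a filter of 5 CPM (7.83% of genes higher, 1.06% lower), 2 with a pseudocount of 5 (1.84% higher, 0.415% lower) and 5 with a replicate block (9.34% higher, 0.96% lower), and 0 were called lower. The statements that follow on single genes are thus differences between group means with their intervals, not calls.

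Of the H3 variant genes, H3f3b was far more abundant than H3f3a. Per kilobase of annotated exon, H3f3b was the most abundant of the 10 in all 4 libraries, at 2395 and 3168 CPM per kilobase in IQ3pos_1909A and IQ3pos_1910A, against 942 and 1083 CPM per kilobase in IQ3neg_1909B and IQ3neg_1910B. On this scale it was followed by H1f0, H2afz, H2afv, H2afj, H3f3a, H2afy and H2afx, an order of group means that was the same in both fractions. In IQ3pos the ranges of H1f0 and H2afz overlapped, as did those of H2afy and H2afx, and in IQ3neg no pair of neighbours among these 8 did. H2afy2 and H1fx were last in both fractions.

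H3f3b (chromosome 11, 116021912 to 116027962 of GRCm38, minus strand) stood at 7128 and 9427 CPM in IQ3pos_1909A and IQ3pos_1910A, against 2804 and 3223 CPM in IQ3neg_1909B and IQ3neg_1910B. Both IQ3pos libraries lay far above both IQ3neg libraries. Its log2 difference was 1.45 (SE 0.27, limma adjusted p = 0.0667), with a 95% interval of 0.79 to 2.11, and 0.63 after TMM scaling (0.12 to 1.14, limma adjusted p = 0.260). H3f3b is itself among the 20 most abundant genes of the table. H3f3a (chromosome 1, 180800832 to 180813943, minus strand) stood at 142 and 176 CPM in IQ3pos_1909A and IQ3pos_1910A, against 71.9 and 88.5 CPM in IQ3neg_1909B and IQ3neg_1910B. Its groups did not overlap either, but the log2 difference of 0.98 (SE 0.33, limma adjusted p = 0.166) came down to 0.17 after TMM scaling, with an interval of -0.57 to 0.91, and to -0.0020 without the 20 most abundant genes. Reads could be split between H3f3a and its close copies H3f3a-ps1, H3f3a-ps2 and H3f3c, whose rows held at most 1.11 CPM in any library. As the treatment of multi-mapped reads is not given, reads of H3f3a left out of every row cannot be counted. Their effect on the shares of the pair was not tested.

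The share of the H3 variant pair is free of scaling, since both genes are read in the same library. H3f3b held 98.0% and 98.2% of the pair's reads in IQ3pos_1909A and IQ3pos_1910A, against 97.5% and 97.3% in IQ3neg_1909B and IQ3neg_1910B. The ratio of H3f3b to H3f3a reads was 50.1 and 53.5 in IQ3pos, against 39.0 and 36.4 in IQ3neg, or 1.37-fold higher in IQ3pos as a ratio of geometric means. All exact 95% binomial intervals of the IQ3pos shares lay above those of the IQ3neg shares, although these cover counting error only. With 2 libraries a group, the exact two-sided permutation p was 0.333, the smallest this design allows.

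For the H2A.Z genes H2afz and H2afv, the ratio of the paralogues differed 1.56-fold between fractions, against 1.37-fold for the H3 pair. H2afz (chromosome 3, 137864487 to 137866922, plus strand) stood at 692 and 1011 CPM in IQ3pos_1909A and IQ3pos_1910A, against 155 and 188 CPM in IQ3neg_1909B and IQ3neg_1910B. The lower IQ3pos library was still above the higher IQ3neg library by a wide margin. Its log2 difference of 2.28 (SE 0.31, 95% interval 1.52 to 3.05, limma adjusted p = 0.0617) was the largest among the 8 tested variant genes, and it was 1.47 after TMM scaling (0.82 to 2.12, limma adjusted p = 0.119). H2afv (chromosome 11, 6427229 to 6444443, minus strand) stood at 219 and 290.4 CPM in IQ3pos_1909A and IQ3pos_1910A, against 75.3 and 85.8 CPM in IQ3neg_1909B and IQ3neg_1910B. Its log2 difference was 1.64 (SE 0.32, interval 0.84 to 2.43, limma adjusted p = 0.0723), and 0.82 after TMM scaling (0.11 to 1.54).

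Within the pair, H2afz held 76.0% and 77.7% of reads in IQ3pos_1909A and IQ3pos_1910A, against 67.3% and 68.7% in IQ3neg_1909B and IQ3neg_1910B. The mean ± SD of the 2 libraries was 76.8% ± 1.21 for IQ3pos, against 68.0% ± 0.987 for IQ3neg (n = 2 each), an IQ3pos to IQ3neg ratio of 1.56 for H2afz over H2afv. The gap between fractions was several times the gap between libraries of a fraction, and the exact two-sided permutation p was again 0.333, the smallest possible.

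**Figure D2:**
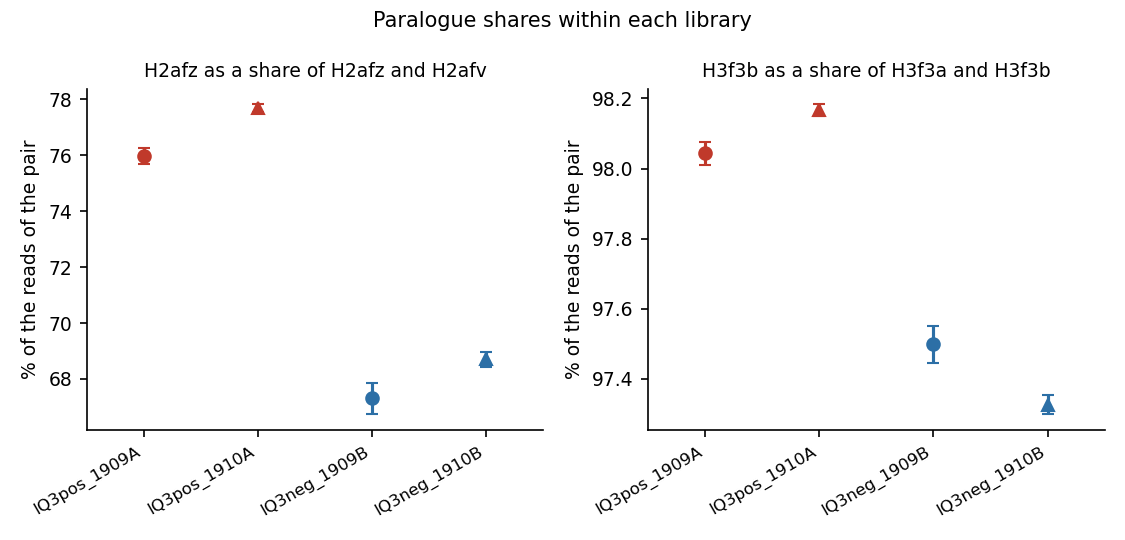
Each panel gives the percent of the reads of a paralogue pair that fell on the named gene, in IQ3pos libraries (red, left) and IQ3neg libraries (blue, right), with exact 95% binomial intervals that cover counting error only; the axes do not start at 0. H2afz took 76.0% and 77.7% of its pair in IQ3pos against 67.3% and 68.7% in IQ3neg, and H3f3b 98.0% and 98.2% against 97.5% and 97.3%.

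The sequences just upstream of the RefSeq starts of H2afz, H2afv and H1f0 are shown because these 3 genes had the largest log2 differences of the 8. Each is 250 bases of GRCm38.p6 from RefSeq, in the direction of the gene, with the CCAAT box (CCAAT, or ATTGG when it lies on the other strand) in capitals.
H2afz (chr3:137864237-137864486, plus strand): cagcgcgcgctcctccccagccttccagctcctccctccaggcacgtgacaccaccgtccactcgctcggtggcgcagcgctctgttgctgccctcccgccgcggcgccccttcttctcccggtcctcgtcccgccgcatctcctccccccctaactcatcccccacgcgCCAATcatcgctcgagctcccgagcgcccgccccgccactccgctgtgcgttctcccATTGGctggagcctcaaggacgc
H2afv (chr11:6444444-6444693, minus strand): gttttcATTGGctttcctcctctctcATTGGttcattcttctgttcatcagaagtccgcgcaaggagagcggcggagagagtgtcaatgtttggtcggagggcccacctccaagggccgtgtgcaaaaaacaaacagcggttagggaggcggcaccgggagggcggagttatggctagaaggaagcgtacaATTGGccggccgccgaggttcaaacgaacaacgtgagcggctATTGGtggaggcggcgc
H1f0 (chr15:79027962-79028211, plus strand): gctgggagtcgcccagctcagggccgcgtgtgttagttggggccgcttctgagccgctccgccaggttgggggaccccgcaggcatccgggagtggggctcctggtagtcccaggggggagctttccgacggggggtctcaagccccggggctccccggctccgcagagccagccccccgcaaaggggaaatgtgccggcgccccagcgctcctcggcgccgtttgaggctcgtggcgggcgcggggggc
H2afv holds 4 CCAAT boxes, H2afz 2 and H1f0 0, and 33.8% of the 32817 mouse promoter windows of this length hold at least 1, 10.1% at least 2 and 0.835% at least 4. Windows were on hand for 9 of the 10 genes, all but H2afx. Among the others H3f3b also holds 4 CCAAT boxes, H2afj 3 and H3f3a 1, while H2afy, H2afy2 and H1fx hold 0. These windows are in part transcribed: annotated exons cover 250 of the 250 bases for H2afy2, 214 for H3f3b, 155 for H1fx, 99 for H3f3a, 81 for H2afy and 4 for H2afj, so their letters are not all upstream of every annotated start. The H1f0 window ends at 79028211, short of the annotated start of the gene at 79028450, and the bases between were not searched. The TATA letters TATAAA, present on either strand in 12.4% of all windows, were found in the H3f3b window alone. The E2F-type letters TTTCCCGC, in 0.893% of all windows, were found in none of the 9, and TTTGAA, a core of the cell cycle homology region found in 15.98% of windows, was found in H2afv alone. GC content was 71.2% for H2afz, 57.2% for H2afv and 74.4% for H1f0, against a mean of 53.2% over all windows. A match is a description of the letters, and binding was not measured.

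The linker histone gene H1f0 (chromosome 15, 79028450 to 79030504, plus strand), an intronless gene whose protein is known from differentiated and slowly dividing cells, came next after H2afz. It stood at 884 and 1370 CPM in IQ3pos_1909A and IQ3pos_1910A, against 249 and 242 CPM in IQ3neg_1909B and IQ3neg_1910B. The IQ3neg libraries were nearly level, the IQ3pos libraries were apart from each other, and the groups did not overlap. The log2 difference was 2.16 (SE 0.30, interval 1.40 to 2.92, limma adjusted p = 0.0618), and 1.34 after TMM scaling (0.65 to 2.03, limma adjusted p = 0.152). The other linker variant gene, H1fx (chromosome 6, 87980421 to 87981637, minus strand), had 0 and 18 reads in IQ3pos_1909A and IQ3pos_1910A, against 0 and 59 reads in IQ3neg_1909B and IQ3neg_1910B. The counts of 0 allow up to 0.0331 CPM in IQ3pos_1909A and 0.0261 CPM in IQ3neg_1909B, taken as 3 reads. H1fx was not detectable in the 3-mouse pools, so no fold is given. The antisense gene Gm5577, which overlaps H1fx, held 0.0110 and 0.00358 CPM in IQ3pos, against 3.36 and 1.35 CPM in IQ3neg, and as the strand setting of the counting is not given in the sources used here, reads of the overlap cannot be assigned with certainty.

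H2afx, which encodes the H2A variant phosphorylated around DNA double-strand breaks, did not follow the other 7 tested variant genes. This intronless gene (chromosome 9, 44334694 to 44336077, plus strand) is known to give both a stem-loop mRNA and a polyadenylated mRNA. It stood at 1.98 and 58.5 CPM in IQ3pos_1909A and IQ3pos_1910A, against 3.72 and 10.96 CPM in IQ3neg_1909B and IQ3neg_1910B. The highest and the lowest library are thus both IQ3pos, and the groups overlap. These values rest on 180 and 16320 reads in IQ3pos and on 428 and 4586 reads in IQ3neg, so counting error does not cover the spread: the 95% exact Poisson interval of IQ3pos_1909A ran from 1.70 to 2.30 CPM. The fitted log2 difference of 0.83 (SE 1.55, limma adjusted p = 0.768) had an interval of -3.02 to 4.67, and after TMM scaling the difference was 0.14 (-3.41 to 3.69, limma adjusted p = 0.973). In CPM it was -1.33 without IQ3pos_1910A and 2.98 without IQ3pos_1909A, so its direction rests on a single library. Such a change of sign was not particular to H2afx. Among genes that place or read variants (listed below), Atm had log2 differences in CPM of -3.49 with 3 mice pooled and 0.98 with 4. Dmap1 had -2.83 and 0.91, while Ep400 (1.64 and -0.15) and Ino80 (1.57 and -0.68) changed sign the other way. Summed cell division markers were higher in the 4-mouse pools than in the 3-mouse pools of each fraction. They stood at 1356 and 3015 CPM in IQ3pos_1909A and IQ3pos_1910A, against 169 and 289 CPM in IQ3neg_1909B and IQ3neg_1910B. Whether the level of H2afx is tied to them was not tested.

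**Figure D3:**
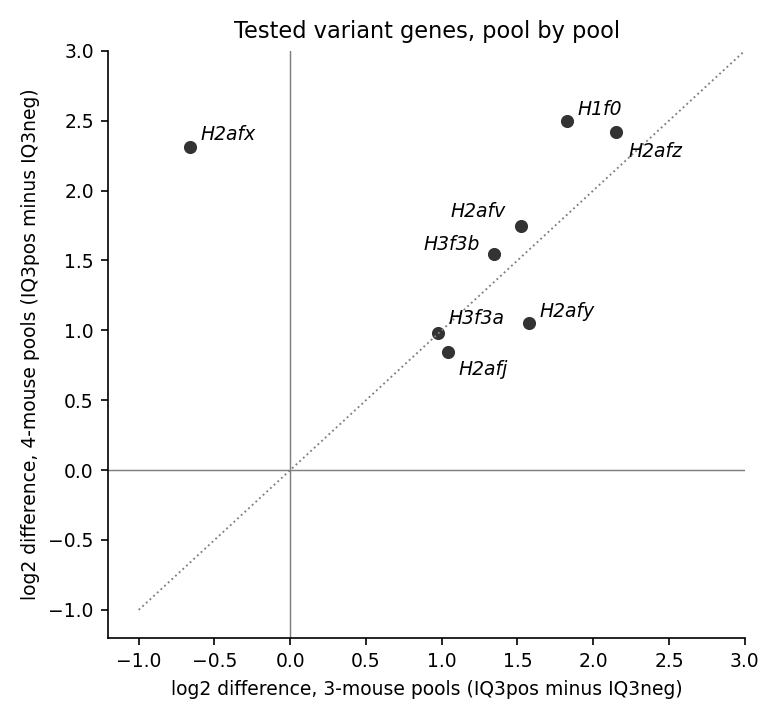
Each point is 1 of the 8 tested variant genes, with the log2 difference of CPM + 1 (IQ3pos minus IQ3neg) in pools of 3 on the horizontal axis and in pools of 4 on the vertical axis; the dotted line marks equal differences. H2afx is at -0.66 and 2.31, away from the other 7 genes, which are positive on both axes.

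Among the remaining H2A variants, H2afj (chromosome 6, 136808244 to 136810074, plus strand), whose protein is known to accumulate in senescent human fibroblasts, stood at 105 and 109 CPM in IQ3pos_1909A and IQ3pos_1910A, against 50.6 and 60.4 CPM in IQ3neg_1909B and IQ3neg_1910B. The groups did not overlap in CPM. Its log2 difference of 0.94 (SE 0.35, limma adjusted p = 0.187) became 0.13 after TMM scaling, with an interval of -0.66 to 0.93, and -0.04 without the 20 most abundant genes, so the difference in CPM was close to that of the median gene. H2afy (chromosome 13, 56073619 to 56136361, minus strand) encodes macroH2A, an H2A with a large extra domain that is associated with silenced chromatin such as the inactive X chromosome. It stood at 269.6 and 188 CPM in IQ3pos_1909A and IQ3pos_1910A, against 89.7 and 90.2 CPM in IQ3neg_1909B and IQ3neg_1910B. The IQ3neg libraries were nearly equal, and of the 7 genes with separated groups H2afy alone was lower in IQ3pos_1910A than in IQ3pos_1909A. The log2 difference was 1.32 (SE 0.33, interval 0.50 to 2.13, limma adjusted p = 0.103), and 0.50 after TMM scaling (-0.31 to 1.31). The gene has 8 annotated transcripts, and gene-level values do not separate its spliced forms.

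H2afy2 (chromosome 10, 61738665 to 61784147, minus strand), which encodes the second macroH2A, was near the detection floor in 3 of the 4 libraries. It had 3 reads each in IQ3pos_1909A and IQ3pos_1910A, against 1 read in IQ3neg_1909B and 1419 reads in IQ3neg_1910B. In CPM this is 0.0331 and 0.0107 in IQ3pos, against 0.00869 and 3.39 in IQ3neg. Only IQ3neg_1910B lay clearly above the floor, so the higher IQ3neg mean rests on that library and no difference between fractions can be given. The gene overlaps Aifm2 on the opposite strand, which stood at 6.11 and 0.0358 CPM in IQ3pos_1909A and IQ3pos_1910A, against 1.83 and 3.67 CPM in IQ3neg_1909B and IQ3neg_1910B.

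**Figure D4:**
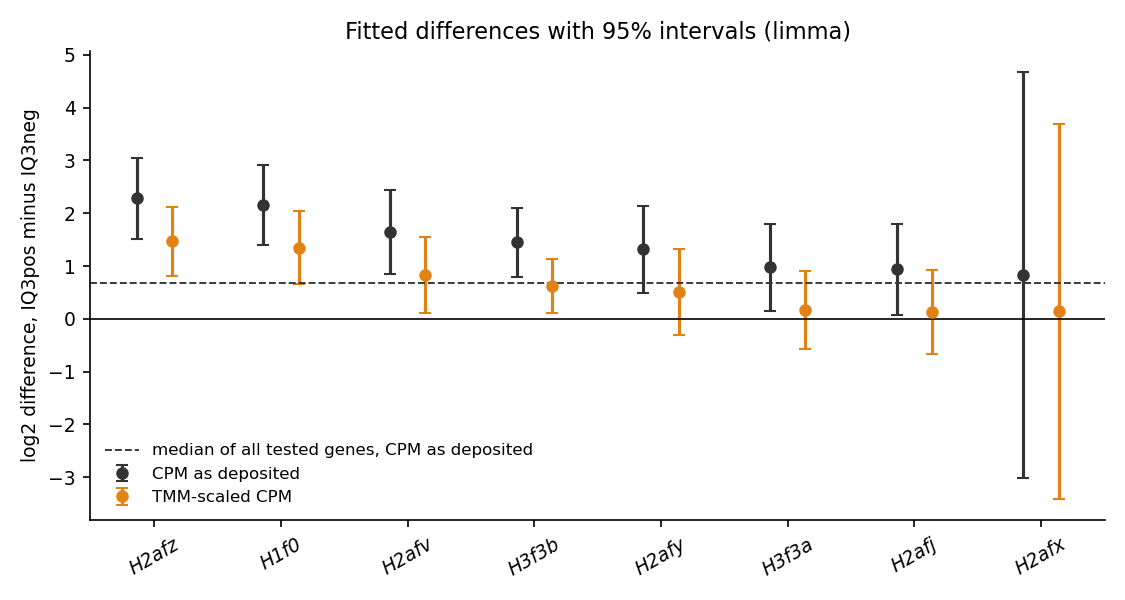
Points give the limma log2 difference, IQ3pos minus IQ3neg, of the 8 tested variant genes on CPM as deposited (black) and on TMM-scaled CPM (orange), with 95% intervals; the dashed line is the median of all tested genes in CPM, 0.68. After TMM scaling the intervals of H2afz, H1f0, H2afv and H3f3b stay above 0, and those of H2afy, H3f3a, H2afj and H2afx include it.

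The differences were then taken pool by pool and without IQ3pos_1909A, whose Iqgap3 level was low. Among the 3-mouse pools the log2 differences of H2afz, H1f0, H2afv and H3f3b were 2.15, 1.83, 1.53 and 1.35, and with 4 mice pooled they were 2.42, 2.49, 1.75 and 1.55 in the same order. H2afy had 1.58 with 3 mice pooled and 1.05 with 4, while H3f3a had 0.97 and 0.98 and H2afj 1.04 and 0.84. Without IQ3pos_1909A the fitted differences of H2afz, H1f0, H2afv and H3f3b were 2.56, 2.48, 1.84 and 1.65, and those of H3f3a, H2afy and H2afj were 1.13, 1.06 and 0.97. On CPM these 7 genes were higher in IQ3pos in each pool size and without that library, where the median of all tested genes lay 0.68 above 0. Those signs follow from groups that do not overlap in CPM, so they add no support. The share of all tested genes with that pattern was not counted. After TMM scaling, H2afz had 1.26 with 3 mice pooled and 1.68 with 4. H3f3a then had only 0.09 and 0.25, and H2afj 0.15 and 0.11.

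Genes whose level ran closest to that of H2afz and H2afx over the 4 libraries were sought among 6618 named genes averaging 10 CPM or more, by the Euclidean distance between mean-centred log2(CPM + 1) values. For H2afz these were Nhp2, Npm1, Timm50, Mrps22 and Hint1, at distances of 0.05 to 0.13. For H2afx they were Gla, Pxmp4, Grk6, Cnot1 and Clp1, at 0.52 to 0.63. With only 4 libraries many genes can lie close by, as for H2afz, and the order is a description. None of the 6618 lay closer to H2afx than Gla, at 0.52. Pearson correlations over the 4 libraries were nonetheless 0.986 to 0.999 for the genes named beside H2afx, so its profile was not unlike theirs in shape. For those named beside H2afz they were 0.9986 to 0.9999.

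The genes that place, evict or read these variants were set beside them, as a list of 44 of which 41 were tested. None passed limma's adjusted threshold (0 higher, 0 lower). At an unadjusted p under 0.05 in limma, 18 were higher and 0 lower (18.2% and 4.98% of all tested genes), and after TMM scaling 12 were higher and 1 lower (6.91% and 8.79% of all tested genes). Their median log2 difference was 1.27 against 0.68 for all tested genes, and 0.52 after TMM scaling. In CPM 24 of the 41 were higher in both IQ3pos libraries and 3 were lower (40.9% and 14.2% of all tested genes), and after TMM scaling 19 were higher and 7 lower (23.3% and 23.7% of all tested genes).

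Factors that deposit the H3 variant were divided. Asf1b, a chaperone of newly made H3 and H4 in dividing cells, stood at 229 and 432 CPM in IQ3pos_1909A and IQ3pos_1910A, against 33.2 and 28.4 CPM in IQ3neg_1909B and IQ3neg_1910B, with a log2 difference of 2.51 after TMM scaling (limma adjusted p = 0.0952). Its paralogue Asf1a, which works with the HIRA complex, stood at 132 and 131 CPM in IQ3pos, against 36.4 and 24.2 CPM in IQ3neg (1.31 after TMM scaling, limma adjusted p = 0.252). Dek, a chromatin protein, stood at 285 and 406 CPM in IQ3pos, against 43.2 and 62.3 CPM in IQ3neg (1.88 after TMM scaling, limma adjusted p = 0.104). Ubn2, a relative of the HIRA complex subunit Ubn1, stood at 34.0 and 27.4 CPM in IQ3pos, against 59.2 and 40.4 CPM in IQ3neg, with a log2 difference of -1.46 after TMM scaling (unadjusted p = 0.0227, limma adjusted p = 0.257). The HIRA complex subunits Ubn1 and Cabin1, named after their values were seen, had differences of -1.76 and -2.03 after TMM scaling, with intervals that include 0. The remaining tested genes of this subgroup, Daxx and Atrx, had differences of -0.05 and -0.92, also with intervals that include 0. Hira itself, also named after its values were seen, had 0.0772 and 0.00358 CPM in IQ3pos and 0.878 and 0.00239 CPM in IQ3neg, under the filter. Over the 8 tested genes of this subgroup the median was -0.48 after TMM scaling.

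Of 11 tested genes of H2A.Z exchange, 0 were lower in both IQ3pos libraries in CPM and 7 were higher (14.2% and 40.9% of all tested genes). After TMM scaling 4 of 11 were higher, not far from the 23.3% of all tested genes. Ruvbl2, an ATPase shared by several remodelling complexes, stood at 99.1 and 150.1 CPM in IQ3pos_1909A and IQ3pos_1910A, against 11.5 and 26.0 CPM in IQ3neg_1909B and IQ3neg_1910B, with a log2 difference of 1.95 after TMM scaling (limma adjusted p = 0.202). Actl6a, an actin-related subunit, stood at 73.7 and 146 CPM in IQ3pos, against 17.2 and 42.5 CPM in IQ3neg. The median of the 11 after TMM scaling was 0.25. The 7 genes of H2AX phosphorylation and reading had a median of -0.26 after TMM scaling, and only Atr, a kinase of the replication stress response, was under an unadjusted p of 0.05, in CPM (29.2 and 36.0 CPM in IQ3pos, 8.50 and 5.14 CPM in IQ3neg, limma adjusted p = 0.138). Trp53bp1, which binds modified nucleosomes at breaks, stood at 3.296 and 22.4 CPM in IQ3pos, against 12.4 and 24.0 CPM in IQ3neg.

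The most abundant general chaperones had higher levels in IQ3pos, without passing the adjusted threshold. Set, an acidic histone chaperone, stood at 3956 and 4507 CPM in IQ3pos_1909A and IQ3pos_1910A, against 1172 and 1293 CPM in IQ3neg_1909B and IQ3neg_1910B, with a log2 difference of 0.96 after TMM scaling (limma adjusted p = 0.143). Ptma, which encodes prothymosin alpha, stood at 793 and 887 CPM in IQ3pos, against 202 and 256 CPM in IQ3neg, and Rbbp7, a histone-binding subunit, at 754 and 799 CPM in IQ3pos, against 188 and 203 CPM in IQ3neg. Npm1, the nucleolar chaperone nucleophosmin, stood at 228 and 302 CPM in IQ3pos, against 49.3 and 60.4 CPM in IQ3neg. After TMM scaling, 7 of the 11 tested general chaperones were higher in both IQ3pos libraries and 2 were lower (23.3% and 23.7% of all tested genes). Cenpa, the centromeric H3 variant, stood at 97.3 and 185 CPM in IQ3pos, against 13.9 and 17.6 CPM in IQ3neg. Its chaperone Hjurp stood at 30.3 and 35.4 CPM in IQ3pos, against 5.89 and 4.51 CPM in IQ3neg. Of the priming complex, Mis18a stood at 32.1 and 85.6 CPM in IQ3pos, against 5.04 and 4.48 CPM in IQ3neg, and Oip5 at 42.6 and 81.7 CPM in IQ3pos, against 3.52 and 4.14 CPM in IQ3neg. These 4 genes formed the subgroup of highest median, 2.35 after TMM scaling, which is near the 2.37 of the 8 cell division markers.

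**Figure D5:**
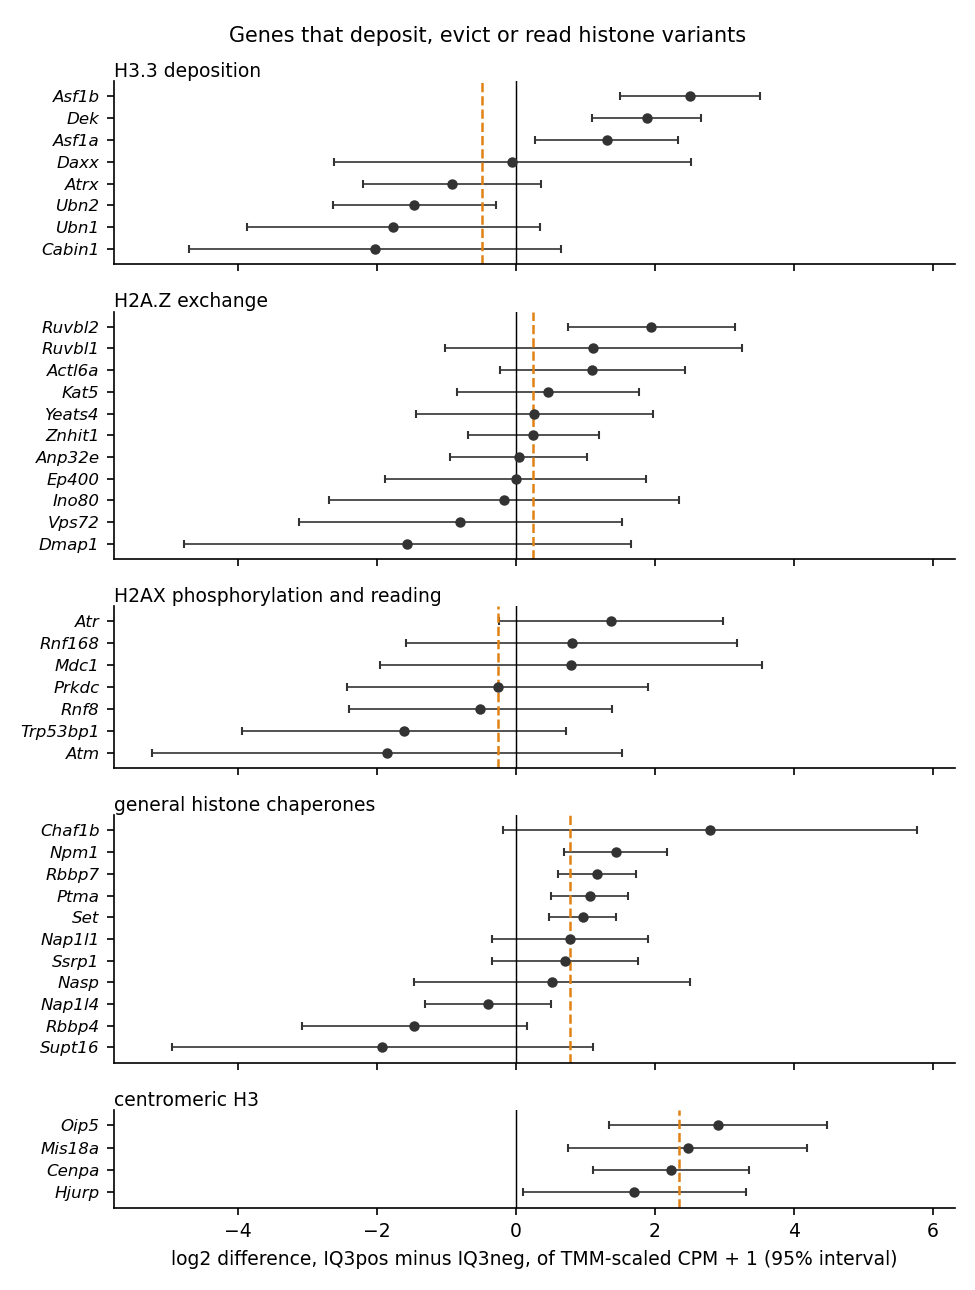
The horizontal axis gives the limma log2 difference, IQ3pos minus IQ3neg, of TMM-scaled CPM + 1, with 95% intervals, for the 41 tested genes of the chaperone list in 5 subgroups; the dashed orange line is each subgroup's median. The median is -0.48 for deposition of the H3 variant, 0.25 for H2A.Z exchange, -0.26 for the H2AX group, 0.78 for general chaperones and 2.35 for centromeric H3.

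The replication-dependent histone genes gave another pattern from the variants. Only 9 of 69 reached the filter, and their median log2 difference was 0.56, against 1.38 for the 8 variant genes and 0.68 for all tested genes. After TMM scaling it was -0.074, below 0 and close to the median of all tested genes, against 0.57 for the variant genes. All 69 together summed to 139 and 116 CPM in IQ3pos_1909A and IQ3pos_1910A, against 104 and 157 CPM in IQ3neg_1909B and IQ3neg_1910B, so the fractions overlapped. In the same libraries the 10 variants summed to 9441 and 12631 CPM in IQ3pos, against 3499 and 3993 CPM in IQ3neg. Stem-loop mRNA without a poly(A) tail is poorly captured by this kind of library, and how much of it was lost in each fraction was not tested.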

How the data were processed

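The authors deposited CPM, counts per 1000000 reads in genes, per gene symbol and library. Per the submitters' processing notes, the tools were STAR (2.7.1a), Subread (2.0.0) with featureCounts, and edgeR, and the build was GRCm38, with no roles stated. Not given in the sources used here: annotation, strand setting and treatment of multi-mapped reads. All values above 0 (100%) were within 0.05 of a whole read, so reads were recovered. PCR reads without molecular identifiers are not independent molecules, so intervals on reads cover counting error only.

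limma 3.58.1 (R 4.3.3) was fitted with trend to log2(CPM + 1) of the 13019 genes averaging 1 CPM or more, for IQ3pos minus IQ3neg, two-sided, with no block and Benjamini-Hochberg adjustment over all genes. Fold changes on this scale understate low genes, and the fit has 2 residual and 3.61 prior degrees of freedom. Alternatives were other pseudocounts, filters, scalings, libraries left out, a block, and edgeR 4.0.16 and DESeq2 1.42.0 on the recovered reads. Scripts were tested on simulated data. Gene positions and exon lengths are from GENCODE vM21, matched by symbol, and the 10 symbols all matched. Of the chaperone list, the text names genes under an unadjusted p of 0.05 after TMM scaling and the 2 of highest mean CPM per subgroup. Ubn1, Cabin1, Hira, Daxx and Atrx were named outside this rule. The genes and lists were chosen with earlier results of these data known.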

Additional observations from a re-analysis of the deposited data

Results flagged for a closer look

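H2afx differed in opposite directions in the pools of the 2 sizes. Its log2 difference of CPM + 1, IQ3pos minus IQ3neg, came to -0.66 with 3 mice pooled and to 2.31 with 4. With 1 library of each fraction per pool size, this contrast was not tested. After TMM scaling the values were -1.33 and 1.61. In CPM, Atm, Dmap1, Ep400 and Ino80 of the chaperone list also had opposite signs in the pool sizes. The other 7 tested variant genes were positive in both pool sizes, which follows from groups that do not overlap. The share of all tested genes with that pattern was not counted. After TMM scaling H3f3a (0.09 and 0.25) and H2afj (0.15 and 0.11) were only slightly positive.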

How the results depend on the processing

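The number of calls depended on the settings. Without a call at the settings of the report, the genes called higher and lower in IQ3pos numbered 6 and 32 with TMM-scaled CPM, 6 and 33 with DESeq2-scaled CPM, 9 and 36 in edgeR, 2 and 9 without the 20 most abundant genes, 428 and 1707 in DESeq2, 239 and 54 at a pseudocount of 5, and 689 and 93 at a filter of 5 CPM. Leaving out any single library gave 0 calls in each direction. Of the 8 variant genes, 0 passed under the first 5 of these, though H3f3b was not tested without the 20 most abundant genes. At a filter of 5 CPM (7.83% of genes called higher, 1.06% lower) H2afz (2.28), H1f0 (2.16), H2afv (1.64) and H3f3b (1.45) passed, with unchanged log2 differences and fewer genes tested. At a pseudocount of 5 (1.84% higher, 0.415% lower) H2afz (2.26) and H1f0 (2.14) passed.

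The labels' library numbers recur in both fractions, and the deviations of same-numbered libraries correlated at 0.15 across genes, but with 2 numbers and no stated link to mice they were not taken as pairs. With a replicate block, 1216 genes were called higher (9.34%) and 125 lower (0.96%), among them H2afz (2.28), H1f0 (2.16), H2afv (1.64), H3f3b (1.45) and H2afy (1.32).

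H2afx reversed to -0.090, H2afj to -0.036 and H3f3a to -0.0020 without the 20 most abundant genes, a setting that leaves out H3f3b. Leaving out a library, with and without TMM scaling (chosen after seeing the data), H2afx ranged from -1.92 to 2.98, with -1.33 on CPM without IQ3pos_1910A and -0.45 on TMM-scaled CPM without IQ3neg_1909B. In the same fits H2afz ranged from 1.23 to 2.56, H1f0 from 1.07 to 2.48, H2afv from 0.66 to 1.84, H3f3b from 0.46 to 1.65, H2afy from 0.21 to 1.57, H3f3a from 0.05 to 1.13 and H2afj from 0.12 to 1.07.

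The median log2 difference of the variant genes, 1.38 over 8 genes, was 0.57 with TMM-scaled CPM and 0.59 with DESeq2-scaled CPM, over the same 8 genes. It was 1.15 without a filter (10 genes), 0.64 in edgeR (9 genes, with H1fx) and 0.67 in DESeq2 (9 genes). Without the 20 most abundant genes it was 0.33 (7 genes, without H3f3b). In these last 4 settings the members changed as well. With a library left out it was 1.33 to 1.74 on CPM and 0.56 to 0.89 on TMM-scaled CPM (0.63 without IQ3neg_1909B). The median of the chaperone list, 1.27 over 41 genes, was 0.99 at a pseudocount of 5, 1.51 at a filter of 5 CPM (36 genes), 0.52 and 0.54 with TMM-scaled and DESeq2-scaled CPM, 0.51 in edgeR, 0.37 without the 20 most abundant genes and 0.55 in DESeq2 (43 genes in edgeR and DESeq2), and with a library left out 1.13 to 1.501 on CPM and 0.35 to 0.96 on TMM-scaled CPM (0.48 without IQ3pos_1910A, 0.45 without IQ3neg_1909B). The cause of these shifts was not tested. H2afy2 had 3 reads or fewer in 3 libraries and H1fx 0 reads in 2, so no fold is given for either. H2afy2 had 1419 reads in IQ3neg_1910B (418401262 reads in all) and 3 in IQ3pos_1910A (279125309 reads).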
